A study of Mus musculus with 12 samples.

Results

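In bone marrow-derived macrophages (BMDMs), 10 cytokine genes of the IL-6, IL-12 and IL-10 families were followed, of 55487 gene models in the deposited table. They were chosen by name, for the family of the protein they encode. *Il6*, *Lif* and *Osm* encode ligands of the IL-6 family. *Il12a*, *Il12b*, *Il23a*, *Il27* and *Ebi3* encode the subunits of the IL-12 family, and *Il10* and *Il19* encode ligands of the IL-10 family. All 10 genes had reads in at least 1 library, and 8 of them passed the filter on low values in the comparisons that include LPS-treated macrophages.

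The macrophages came from mice aged 8 to 12 weeks, and were grown from bone marrow in L929 cell-conditioned medium. The wild-type (WT) mice were C57BL/6 animals supplied by 1 animal facility, and the line of knock-out (KO) mice was made at another. The KO mice carry the genotype Rasgef1b-fl/fl;CMVcre, in which a Cre transgene under the CMV promoter removed exons 7 and 8 of *Rasgef1b* in all tissues and not in macrophages alone. Cells of each genotype were left untreated or were given 100 ng/ml lipopolysaccharide (LPS) of *Escherichia coli* O55:B5 for 4 h. This gave 4 groups of 3 libraries. Where the KO mice of these cultures were kept is not given in the sources used here, and a part of housing or origin of the mice in the genotype values was not tested.

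The cytokines of these families are secreted proteins with which macrophages instruct other immune cells once a Toll-like receptor has sensed a microbial product such as LPS. IL-6 family ligands signal through receptors that contain the chain encoded by *Il6st*, and drive fever, the acute phase response and leukocyte survival. IL-12 family cytokines are heterodimers built from a small set of shared chains, so that the supply of 1 chain can serve several cytokines. IL-12 and IL-23 share the chain encoded by *Il12b*, whereas IL-27 and IL-35 share the chain encoded by *Ebi3*. IL-10 limits inflammatory gene expression in the macrophage itself through STAT3, and IL-19 belongs to the same family but signals through a different receptor.

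The genes lie on 7 chromosomes of the GRCm38 build. *Il6* spans positions 30013114 to 30019981 of chromosome 5, *Il12a* 68690644 to 68698547 of chromosome 3, *Il12b* 44400063 to 44414033 of chromosome 11 and *Il23a* 128296139 to 128298752 of chromosome 10. *Il27* spans 126589010 to 126594941 of chromosome 7 and *Ebi3* 55952640 to 55957022 of chromosome 17. *Osm* (4236420 to 4241026) and *Lif* (4257557 to 4272514) are neighbors on chromosome 11, with 16.5 kb and no annotated gene between them. *Il19* (130932656 to 130940115) and *Il10* (131019845 to 131024974) lie 79.7 kb apart on chromosome 1, also with no annotated gene between them. Exons of *Il27* overlap those of *Apobr* on the opposite strand over 103 nt, and exons of *Ebi3* overlap the antisense gene *Gm16712* over 270 nt. Whether reads were counted by strand is not given in the sources used here, so reads in those stretches cannot be assigned to 1 gene of the pair.

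Promoter sequences were available from RefSeq (GRCm38.p6) for 6 of the 10 genes, and not for *Osm*, *Il23a*, *Il27* and *Il10*. The 250 bases before the transcription start of 4 of them are printed here because these genes span the range of LPS responses described further on. *Il6* and *Il12b* are nearly silent without LPS, *Ebi3* has a high level without it, and *Il19* is the weaker expressed of the IL-10 family genes after it. Capitals mark matches, on either strand, to motifs of transcription factors that LPS is known to engage, and to the TATA motif of the core promoter. Each sequence reads 5′ to 3′ in the direction of transcription and ends at the base before the start. The stretches are chr5:30012864-30013113 for *Il6*, chr11:44399813-44400062 for *Il12b* and chr17:55952373-55952622 for *Ebi3*, all on the plus strand, and chr1:130940116-130940365 for *Il19* on the minus strand.

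Il6: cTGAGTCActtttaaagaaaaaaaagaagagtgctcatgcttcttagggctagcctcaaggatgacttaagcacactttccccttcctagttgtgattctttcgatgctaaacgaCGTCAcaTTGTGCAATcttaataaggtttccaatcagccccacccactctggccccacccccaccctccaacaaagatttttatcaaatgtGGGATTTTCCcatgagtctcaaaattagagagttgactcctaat
Il12b: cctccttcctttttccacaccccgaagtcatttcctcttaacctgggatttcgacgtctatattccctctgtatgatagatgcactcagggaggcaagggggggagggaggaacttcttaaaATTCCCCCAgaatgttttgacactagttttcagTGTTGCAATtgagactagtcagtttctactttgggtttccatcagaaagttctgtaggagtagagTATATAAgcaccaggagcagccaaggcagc
Ebi3: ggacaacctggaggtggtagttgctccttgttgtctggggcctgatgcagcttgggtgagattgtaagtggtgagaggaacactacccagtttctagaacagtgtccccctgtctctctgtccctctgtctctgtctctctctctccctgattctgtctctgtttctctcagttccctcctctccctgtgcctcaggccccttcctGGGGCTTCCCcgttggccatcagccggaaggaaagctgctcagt
Il19: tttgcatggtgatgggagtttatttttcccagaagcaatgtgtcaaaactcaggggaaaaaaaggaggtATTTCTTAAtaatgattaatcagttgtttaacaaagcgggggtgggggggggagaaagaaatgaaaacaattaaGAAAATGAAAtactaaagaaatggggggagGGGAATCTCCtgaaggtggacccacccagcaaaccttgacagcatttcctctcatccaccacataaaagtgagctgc

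The NF-kB consensus was found in *Il6* and *Ebi3* from 44 to 35 bases before the start and in *Il19* from 77 to 68 bases before it, and 3.90% of all 32851 promoter windows of 250 bases hold a match. C/EBP motifs, searched as TTNNGNAAT, TTNNGNAAG, TGNNGNAAT or TGNNGNAAG, were found in *Il6*, *Il12b* and *Il19*, against 40.1% of all windows. The AP-1 motif TGANTCA was found in *Il6* and *Lif* (6.75% of windows). The core of the cAMP response element, TGACG, was found in *Il6* (17.8%), the interferon-stimulated response element, GAAA, any 2 bases and GAAA again, in *Il19* (2.98%), and the TATA motif TATANAA in *Il12b* from 30 to 24 bases before the start (10.4%). No match lay in the 2 windows of *Il12a*, and the marked matches do not overlap. A match describes these letters and is not evidence of binding.

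The libraries were close in depth. Reads in genes numbered 19316691 to 24977356 per library with a median of 20552126, and 1 read corresponds to 0.660 to 0.855 normalized counts in the untreated libraries and to 1.21 to 1.41 in the LPS-treated ones. Each change with LPS thus includes this difference in scaling, and *Osm*, for instance, went from 406 to 163 reads in the WT groups but from 96.5 to 75.4 normalized counts in the mean. *Rasgef1b* reads were lower in KO macrophages, at 609 ± 77.4 against 2072 ± 88.2 normalized counts in untreated cells and 3862 ± 297 against 12084 ± 407 after LPS (SD, n = 3), with the exons outside the deletion still counted. All 8 macrophage markers examined, among them *Adgre1* (F4/80) and *Itgam* (CD11b), had a mean of at least 10 in every group. In untreated KO library 2, 5.06% of the reads fell on an rRNA gene model, against 0.0398% in the lowest library. Library 1 of each WT group and library 2 of each KO group had 15146 to 18652 normalized counts of *Xist*, the RNA of the inactive X chromosome, and the other 8 libraries 5.73 to 28.7. The Y-linked gene *Ddx3y* had at most 7.85 normalized counts in those 4 libraries and 1246 to 1658 in the other 8. Each group thus holds 1 library with *Xist* and 2 without, and values within these libraries are given below where they bear on a result.

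Before LPS, 4 of the 10 genes had a measurable level and the other 6 had at most 6 reads in any library. Levels between genes are compared here as normalized counts per kb of exon length. *Ebi3* stood highest in WT macrophages, at 342 ± 47.3 per kb, followed by *Osm* at 42.5 ± 3.03, *Il10* at 34.9 ± 5.96 and *Il27* at 17.9 ± 2.66 (SD, n = 3). The ranges of *Osm* and *Il10* overlapped, and those of the other neighbors in this order did not. In KO macrophages *Ebi3* was again highest at 345 ± 83.0 per kb, and *Il10* (45.0 ± 11.5) and *Osm* (41.6 ± 6.45) overlapped in their ranges.

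**Figure D1:**
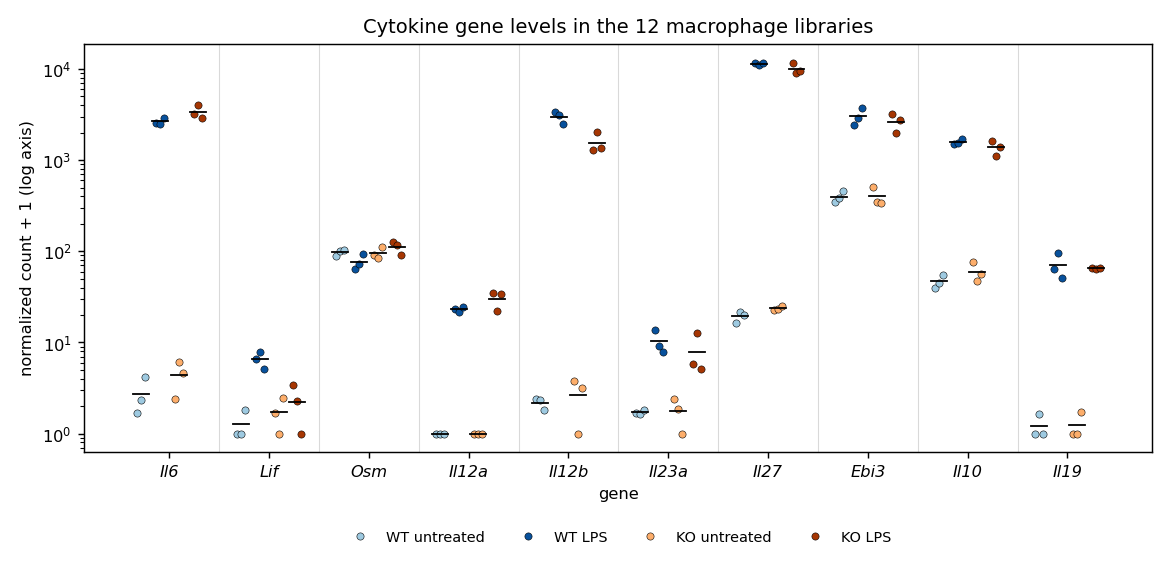
Normalized count plus 1 on a log axis for the 10 cytokine genes, with 1 point per library in replicate order and 4 groups per gene, a black line marking the mean of 3 libraries. For 7 genes the LPS-treated libraries of both genotypes lie far above the untreated ones, whereas the 4 groups of *Osm* lie within 63.3 to 127 normalized counts and those of *Lif* within 0 to 6.82.

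With LPS, 7 of the 10 genes rose in WT macrophages, and the same 7 rose in KO macrophages. They are *Il6*, *Il12a*, *Il12b*, *Il27*, *Ebi3*, *Il10* and *Il19*, and none of the 8 tested genes fell. Over all 12656 genes tested in WT macrophages, 17.1% were called higher and 16.9% lower. Over the 12732 tested in KO macrophages, 17.3% were called higher and 16.6% lower. A call needed an adjusted p under 0.05 from limma and a log2 fold change of at least 1 in size, on log2 of the normalized count plus 1. The quasi-likelihood test of edgeR and DESeq2, run on the reads recovered from the normalized counts, also called 7 genes higher in each genotype. The median log2 fold change of the 8 tested genes was 5.47 in WT and 5.32 in KO macrophages, against −0.02 and −0.01 over all genes tested. In a bulk culture, a change in the share of cells that express a gene and a change in RNA per cell cannot be told apart. Dendritic cells are another known source of IL-12 family cytokines, and the summed level of 6 dendritic cell markers went from 12.5 to 19.9 normalized counts in untreated WT libraries to 77.4 to 99.6 with LPS, and from 10.3 to 24.7 to 92.6 to 128 in KO libraries. Most of that sum with LPS was *Xcr1*, at 62.8 ± 19.2 in WT and 68.3 ± 12.1 in KO macrophages (SD, n = 3). The mean of *Clec9a* went from 3.55 to 18.1 in WT macrophages and was 20.4 with LPS in KO macrophages. *Zbtb46* went from 6.58 to 7.85 in WT and from 7.57 to 15.4 in KO macrophages. *Flt3*, *Cd209a* and *Siglech* had means of at most 1.87 in every group. At such levels these markers were below the filter, so whether they rose was not tested. Both *Xcr1* (log2 fold change 3.67 for WT, 4.19 for KO) and *Clec9a* (2.04 for WT, 2.40 for KO) were called higher with LPS. *Zbtb46* was below the filter for WT and was not called for KO (1.02, limma adjusted p = 0.0517). The part of dendritic cells in the cytokine values was not tested.

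Of the IL-6 family ligands, *Il6* had the widest range. In untreated WT libraries 1 to 3 it had 0.692, 1.32 and 3.19 normalized counts, from 1, 2 and 4 reads, and in untreated KO libraries 1.41, 5.13 and 3.58. After LPS it had 2583, 2503 and 2896 in WT and 3215, 4010.2 and 2881 in KO libraries. Every LPS-treated library was thus far above every untreated one. The log2 fold change was 10.03 in WT (SE 0.29, limma adjusted p = 3.26e-09) and 9.68 in KO macrophages (SE 0.31, limma adjusted p = 2.40e-08). Since the untreated groups hold 7 and 13 reads in all, the size of this change rests on few reads at its lower end, and the ratio of levels had a 95% counting interval of 777 to 3986 in WT and 604 to 1941 in KO macrophages. Such intervals cover counting error only.

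*Osm*, which encodes oncostatin M, a ligand that acts on stromal, endothelial and liver cells, had a low level in all 4 groups. It had 88.6, 99.7 and 101 normalized counts in untreated WT libraries and 63.3, 71.0 and 91.8 after LPS. In KO libraries it had 89.6, 82.9 and 111 untreated and 127, 116 and 89.8 with LPS. The WT groups overlapped, with library 3 after LPS above library 1 before it, and so did the KO groups. Neither log2 fold change passed the test, at −0.37 in WT (SE 0.17, 95% interval −0.75 to 0.02, limma adjusted p = 0.0771) and 0.23 in KO macrophages (SE 0.18, interval −0.18 to 0.63, limma adjusted p = 0.276). These values depend on the scaling, being −0.06 in WT (adjusted p = 0.775) and 0.53 in KO macrophages (adjusted p = 0.0241) with quantile normalization. Without LPS-treated WT library 3 the WT value was −0.52 (limma adjusted p = 0.0152).

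*Lif*, which encodes leukemia inhibitory factor, was below the filter in every comparison, and its reads were few throughout. Untreated WT libraries held 0, 0 and 1 reads and LPS-treated ones 4, 5 and 3, with no overlap. Among the genes that passed the filter, which *Lif* did not, 76.9% did not overlap in WT and 76.5% in KO macrophages. Untreated KO libraries held 1, 0 and 2 reads and LPS-treated ones 2, 1 and 0. The ratio of levels with LPS to without was 23.4 in WT (95% counting interval 3.46 to 1000.1) and 1.71 in KO macrophages (0.229 to 12.8). Thus its level was higher with LPS in the 3 WT libraries beyond counting error, and no change was detectable at this depth in KO libraries.

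Of the IL-12 family subunits, *Il12b* had the largest log2 fold change of the 8 tested genes in WT macrophages with a pseudocount of 1, whereas with a pseudocount of 5 *Il27* (8.95) lay above it (8.91). Untreated libraries held 1.38, 1.32 and 0.797 normalized counts in WT and 2.82, 0 and 2.15 in KO. With LPS they held 3328, 3130.5 and 2462 in WT and 1277, 2025 and 1342 in KO. The log2 fold change was 10.42 in WT (SE 0.18, limma adjusted p = 2.16e-10) and 9.37 in KO macrophages (SE 0.46, limma adjusted p = 2.83e-07). The untreated groups hold 5 and 7 reads in all.

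*Il12a*, whose product pairs with that of *Il12b* to form IL-12, had no read in any of the 6 untreated libraries. With LPS it had 22.5, 20.5 and 23.6 normalized counts in WT and 33.9, 20.9 and 32.7 in KO libraries. Against a floor of 3 counts over the untreated group, its level was at least 31.2-fold higher with LPS in WT and at least 38.8-fold higher in KO macrophages. *Il23a*, whose product pairs with the same *Il12b* chain to form IL-23, was below the filter. Its 3 untreated WT libraries held 1 read each and the LPS-treated ones 9, 6 and 5, and in KO libraries the reads were 2, 1 and 0 without and 4, 9 and 3 with LPS. The groups did not overlap in either genotype, and the ratios of levels were 13.0 (95% counting interval 3.85 to 68.3) in WT and 9.13 (2.61 to 48.9) in KO macrophages.

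*Il27* and *Ebi3* encode the 2 chains of IL-27, a cytokine that acts on T cells through a receptor that also uses the *Il6st* chain. *Il27* had 15.2, 20.5 and 19.1 normalized counts in untreated WT libraries and 11750.3, 10946 and 11558 with LPS. In KO libraries it had 21.9, 22.2 and 24.3 untreated and 11723, 9031 and 9502 with LPS. It thus went from the fourth level among these genes to the highest, with a log2 fold change of 9.22 in WT (SE 0.11, limma adjusted p = 4.01e-11) and 8.72 in KO macrophages (SE 0.11, limma adjusted p = 2.39e-10).

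*Ebi3* had 345, 385 and 453 normalized counts in untreated WT libraries and 2442, 2908 and 3696 with LPS. In KO libraries it had 509, 347 and 339 untreated and 3214, 2001 and 2734 with LPS. Its log2 fold change was the smallest of the 7 called genes, at 2.92 in WT (SE 0.15, limma adjusted p = 1.19e-07) and 2.73 in KO macrophages (SE 0.20, limma adjusted p = 3.01e-06). *Apobr*, the gene opposite *Il27*, went from 2738 ± 118 to 6218 ± 186 normalized counts with LPS in WT macrophages, and *Gm16712*, opposite *Ebi3*, from 47.1 ± 9.59 to 417 ± 98.5 (SD, n = 3). The part of shared reads in the values of *Il27* and *Ebi3* was not tested.

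Of the IL-10 family ligands, *Il10* had a measurable level before LPS. It had 38.8, 44.2 and 54.2 normalized counts in untreated WT libraries and 1485, 1526 and 1714 with LPS, and 75.5, 46.2 and 55.1 against 1616, 1113 and 1394 in KO libraries. The log2 fold change was 5.09 in WT (SE 0.13, limma adjusted p = 1.52e-09) and 4.53 in KO macrophages (SE 0.19, limma adjusted p = 1.13e-07). *Il19*, its neighbor on chromosome 1, had 1 read in all in the untreated WT libraries and 1 in the untreated KO libraries. With LPS it reached 63.3, 95.5 and 50.1 normalized counts in WT and 65.3, 62.8 and 64.0 in KO libraries, and the ratio of levels had a 95% counting interval of 52.0 to 11704 in WT and 45.1 to 10145 in KO macrophages. The log2 fold changes were 5.85 (SE 0.41, limma adjusted p = 1.08e-06) and 5.76 (SE 0.38, limma adjusted p = 1.74e-06).

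**Figure D2:**
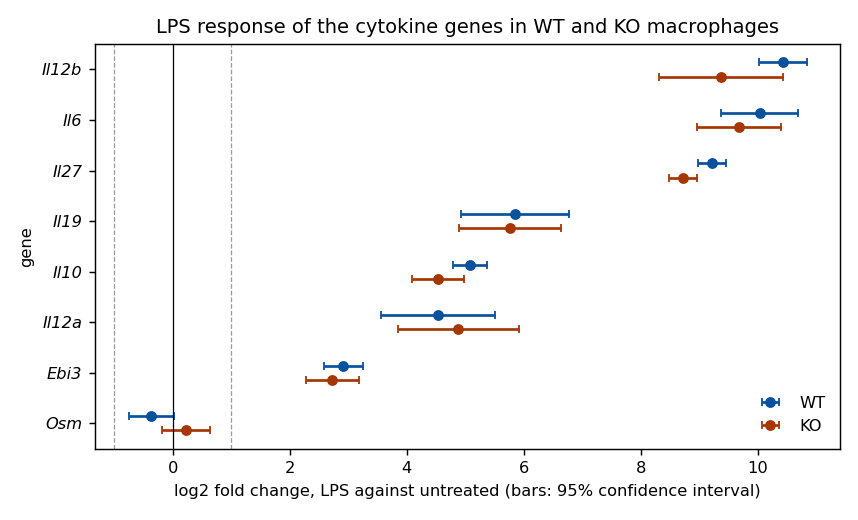
Log2 fold change with LPS against untreated macrophages for the 8 tested genes (points, WT in blue and KO in brown), with 95% confidence intervals from limma as bars and dashed lines at a change of 1 log2 unit in either direction. *Il12b*, *Il6* and *Il27* lie above 8 in both genotypes, *Ebi3* lies between 2 and 4, and the intervals of *Osm* include 0.

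With LPS the order of the levels per kb changed. *Il27* was highest in WT macrophages at 11183 ± 412 per kb, then *Ebi3* at 2613 ± 549, *Il12b* at 1512 ± 231, *Il10* at 1202 ± 93.2 and *Il6* at 1096 ± 85.7 (SD, n = 3). *Il12b* overlapped with *Il10* in range, and *Il10* with *Il6*. Below them came *Il19* at 60.6 ± 20.3, *Osm* at 33.2 ± 6.49, *Il12a* at 13.1 ± 0.947, *Il23a* at 4.13 ± 1.34 and *Lif* at 1.27 ± 0.305, with no overlap between neighbors. In KO macrophages *Il27* (9878 ± 1408 per kb) and *Ebi3* (2296 ± 529.5) were again highest, and the next 3 were *Il6* at 1388 ± 239, *Il10* at 1049 ± 193 and *Il12b* at 787 ± 211. *Il6* overlapped with *Il10*, and *Il10* with *Il12b*, so that *Il12b* was the third highest of the 10 genes in WT and the fifth in KO macrophages.

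Between the genotypes, no gene of the 10 was called, neither in untreated nor in LPS-treated macrophages. The gene that came nearest was *Il12b*, which was lower in KO macrophages after LPS by 0.96 log2 units, just short of the fold threshold. In untreated macrophages 4 genes could be tested (*Osm*, *Il27*, *Ebi3* and *Il10*), and 8 with LPS. Of the 4 untreated, 0 had an unadjusted p under 0.05 in limma, and edgeR and DESeq2 called 0. Over all 12461 genes tested there, 0.193% were called, 0.538% passed the adjusted p alone and 10.8% had an unadjusted p under 0.05. With LPS 3 of the 8 had an unadjusted p under 0.05 in limma (*Il6*, *Osm* and *Il12b*) and 1 passed the adjusted p alone, while edgeR and DESeq2 called 0. Over all 12504 genes tested with LPS, 0.232% were called, 0.816% passed the adjusted p alone and 10.6% had an unadjusted p under 0.05.

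In untreated macrophages the 4 tested genes had log2 fold changes, KO against WT, of 0.34 for *Il10* (95% interval −0.15 to 0.83), 0.31 for *Il27* (−0.18 to 0.80), −0.00 for *Ebi3* (−0.38 to 0.37) and −0.04 for *Osm* (−0.36 to 0.28), with limma adjusted p of 0.637 to 0.996. The 3 KO libraries of *Il27* (21.9 to 24.3 normalized counts) lay above the 3 WT ones (15.2 to 20.5), and the other 9 genes overlapped between the genotypes. Of all genes tested, 16.4% did not overlap in this comparison. *Il6* had 7 reads in the untreated WT group and 13 in the KO group, a ratio of levels of 1.97 with a 95% counting interval of 0.729 to 5.82. *Il12b* had 5 and 7 reads, with a ratio of 1.48 (0.405 to 5.92).

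With LPS, *Il12b* was lower in each KO library (1277, 2025 and 1342 normalized counts) than in each WT library (3328, 3130.5 and 2462), and 16.1% of all genes tested did not overlap in this comparison. The means were 1548 ± 414 and 2974 ± 454 (SD, n = 3), and the log2 fold change was −0.96 (SE 0.17, 95% interval −1.33 to −0.59, limma adjusted p = 0.0305). The adjusted p was 0.0333 with edgeR and 0.0300 with DESeq2, and 0.00061 to 0.314 over the 18 alternatives, 13 of which gave less than 0.05. These 13 include the replicate block, which is no check here because replicate numbers do not pair WT with KO libraries. They also include the term for libraries with *Xist*, which was chosen after seeing the data. It was 0.314 with all 12 libraries in 1 fit and 0.243 without a trend of the variance. The gene was called without WT library 3 (−1.09, adjusted p = 0.0307) and without KO library 2 (−1.17, adjusted p = 0.00278), and its adjusted p was 0.147, 0.143 and 0.163 without WT library 1, WT library 2 and KO library 3.

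The libraries with *Xist* were the highest for *Il12b* in both LPS-treated groups, WT library 1 and KO library 2. Between these 2 libraries the KO level was 60.8% of the WT level, and between the other 4 libraries it was 46.8% (1309.7 against 2796 normalized counts). Since every KO library was below every WT library, any split of them gives the same direction, so this is no separate check. With a term for the libraries with *Xist* in the fit, the limma adjusted p was 0.00194. Of 6 T and NK cell markers, *Cd4* alone had a mean of at least 10, and their summed level with LPS was 151 to 175 normalized counts in WT and 83.5 to 101 in KO libraries. *Cd4* had 92.3 ± 7.75 normalized counts in KO against 159 ± 12.1 in WT macrophages with LPS, and 126 ± 18.7 against 216 ± 42.7 untreated. *Cd3e* and *Cd3g*, which define T cells, had at most 3 reads in any group and *Ncr1* none. The summed level of 7 neutrophil and granulocyte precursor markers with LPS was 293 to 637 in WT and 386 to 1144 normalized counts in KO libraries. The groups overlapped, with KO library 1 the highest, and *Ly6g*, which defines neutrophils, had 0 reads in both. *S100a8*, 1 of these markers, was called higher with LPS in KO macrophages (1.07, limma adjusted p = 0.0351) and had 0.34 in WT (adjusted p = 0.326), and its interaction did not pass the test (0.73, adjusted p = 0.999). Without KO library 1 the value of *Il12b* was −0.84 (limma adjusted p = 0.0347). The part of these markers in the *Il12b* difference was not tested.

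**Figure D3:**
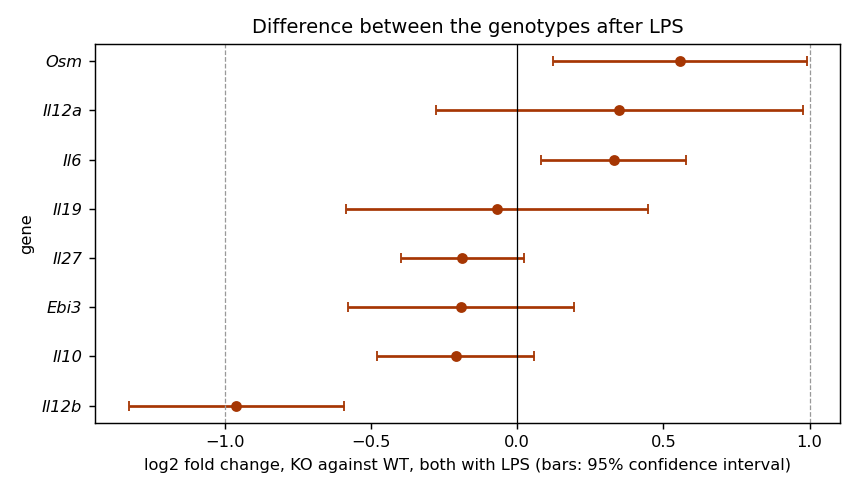
Log2 fold change, KO against WT, of the 8 tested genes in LPS-treated macrophages (points) with 95% confidence intervals from limma as bars and dashed lines at a change of 1 log2 unit in either direction. The interval of *Il12b* (−1.33 to −0.59) lies below 0, those of *Osm* (0.12 to 0.99) and *Il6* (0.08 to 0.58) lie above 0 before adjustment over all genes, and the other 5 include 0.

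The other 7 tested genes did not pass the test between the genotypes with LPS. *Il6* had a log2 fold change of 0.33 (SE 0.11, 95% interval 0.08 to 0.58, unadjusted p = 0.0140, limma adjusted p = 0.300). Its KO libraries (2881 to 4010.2 normalized counts) overlapped with the WT ones (2503 to 2896) at KO library 3 only. *Osm* had 0.56 (SE 0.20, interval 0.12 to 0.99, unadjusted p = 0.0170, limma adjusted p = 0.326). The groups overlapped here too, with KO library 3 (89.8) below WT library 3 (91.8). For *Il6* and *Osm* the difference was larger in the libraries with *Xist*, at 155% and 184% of the WT level, than in those without, at 113% and 133%.

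The values for the other 5 genes were 0.35 for *Il12a* (95% interval −0.28 to 0.98), −0.07 for *Il19* (−0.59 to 0.45), −0.19 for *Il27* (−0.40 to 0.02), −0.19 for *Ebi3* (−0.58 to 0.20) and −0.21 for *Il10* (−0.48 to 0.06), with limma adjusted p of 0.540 to 0.952. These intervals leave room for differences of up to about 1 log2 unit for *Il12a* and of less than that for the other 4. *Lif* held 12 reads in the LPS-treated WT group and 3 in the KO group, a ratio of levels of 0.232 (95% counting interval 0.0421 to 0.861). Its 3 KO libraries (0 to 2.42 normalized counts) lay below the 3 WT ones (4.17 to 6.82). Among the genes that passed the filter, which *Lif* did not, 16.1% did not overlap in this comparison. *Il23a* held 20 and 16 reads, a ratio of 0.744 (0.360 to 1.51).

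The interaction asks whether the response to LPS itself differed between the genotypes. It was called for 0 of the 8 tested genes by limma, edgeR and DESeq2, against 0.00787% of all 12711 genes tested in limma, and 3 of the 8 (*Il27*, *Il10* and *Osm*) had an unadjusted p under 0.05, against 4.22% of all genes. The difference of log2 fold changes, KO minus WT, was −0.50 for *Il27* (95% interval −0.85 to −0.16, unadjusted p = 0.00793, limma adjusted p = 0.997). It was −0.55 for *Il10* (−1.10 to −0.01, unadjusted p = 0.0482, limma adjusted p = 0.999) and 0.59 for *Osm* (0.05 to 1.13, unadjusted p = 0.0336, limma adjusted p = 0.999). For *Il12b* it was −1.05, with an interval of −2.24 to 0.14 (limma adjusted p = 0.999). The untreated levels of this gene rest on few reads, and their part in the width of the interval was not tested. A difference between the genotypes in the *Il12b* response itself was thus not shown.

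**Figure D4:**
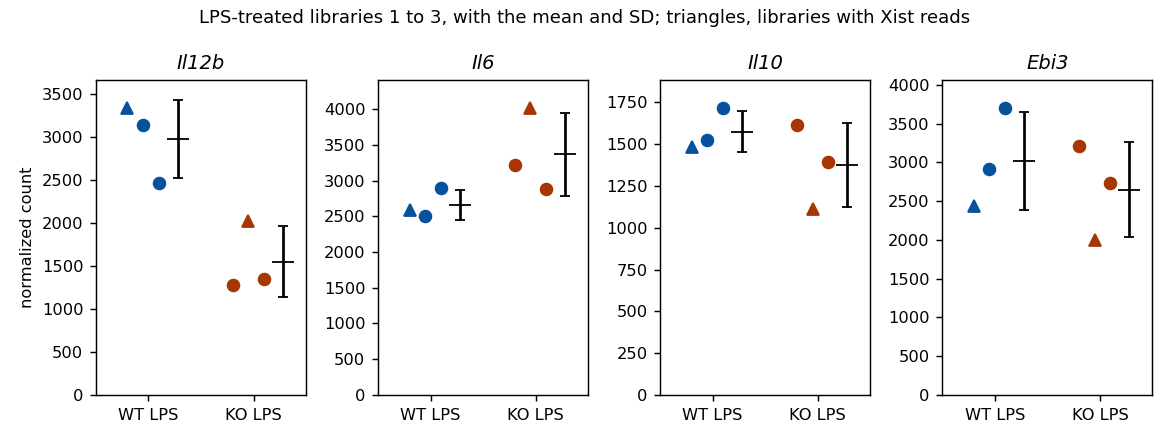
Normalized counts of *Il12b*, *Il6*, *Il10* and *Ebi3* in the LPS-treated libraries, with 1 symbol per library in replicate order on a linear axis from 0, and the mean with the SD of 3 libraries beside them. Triangles are the libraries with *Xist* reads, which were the highest of their group for *Il12b* and the lowest for *Il10* and *Ebi3* in both genotypes.

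Within the LPS-treated groups, the order of the libraries differed between the genes. For *Il10* and *Ebi3* the WT libraries rank 1, 2, 3 from the lowest and the KO libraries 2, 3, 1. For *Il12b* the order was the reverse in both groups. In percent of the group mean, KO library 2 had 131% for *Il12b*, 81.0% for *Il10* and 75.5% for *Ebi3*, and WT library 1 had 112%, 94.3% and 81.0%. With 3 libraries a group these orders are a description, and no test was made of them.

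The levels per kb of subunit genes were compared within each library. The ratios are given here of the levels themselves, and their tests were made on log2 ratios after 1 was added to each normalized count. With LPS, the level per kb of *Il12b* was 128, 132 and 90.04 times that of its IL-12 partner *Il12a* in WT libraries and 32.6, 83.7 and 35.5 times in KO libraries. The groups did not overlap, and the difference of mean log2 ratios was −1.31 (exact permutation test, two-sided, p = 0.1, 0.25 after Benjamini-Hochberg adjustment over 5 ratios). With 3 libraries against 3, a p of 0.1 is the smallest this test can give. *Il12a* was measured with 15 to 28 reads per library, which limits the precision of this ratio. The spread of *Il12b* between libraries enters the ratio as well. In the libraries with *Xist* the ratio was 128 in WT and 83.7 in KO. Between these the KO level of *Il12a* was 92.9% of the WT level, and between the other libraries it was 151%.

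For the IL-23 pair the level of *Il12b* was 300.2, 437 and 404 times that of *Il23a* in WT and 302, 197 and 375 times in KO libraries. These groups overlapped (difference −0.50, exact permutation p = 0.2, adjusted 0.333), and *Il23a* had 3 to 9 reads per library. For the IL-35 pair the level of *Ebi3* was 159.8, 209 and 230.4 times that of *Il12a* in WT and 139.9, 141 and 123 times in KO libraries, without overlap (difference −0.54, exact permutation p = 0.1, adjusted 0.25). In both pairs with *Il12a*, the shared partner is the rarer transcript by far.

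The IL-27 pair changed its order with LPS. In untreated macrophages the level per kb of *Il27* was 0.0477 to 0.0601 times that of *Ebi3* in WT and 0.0486 to 0.0812 times in KO libraries. With LPS it was 5.44, 4.25 and 3.53 times that of *Ebi3* in WT and 4.12, 5.10 and 3.93 times in KO libraries. *Ebi3* was thus the more abundant of the pair in each of the 6 untreated libraries, and *Il27* in each of the 6 LPS-treated ones. Between the genotypes the mean log2 ratios differed by 0.0048 with LPS (exact permutation p = 1) and by 0.32 untreated (exact permutation p = 0.3, adjusted 0.375), and the groups overlapped in both conditions.

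**Figure D5:**
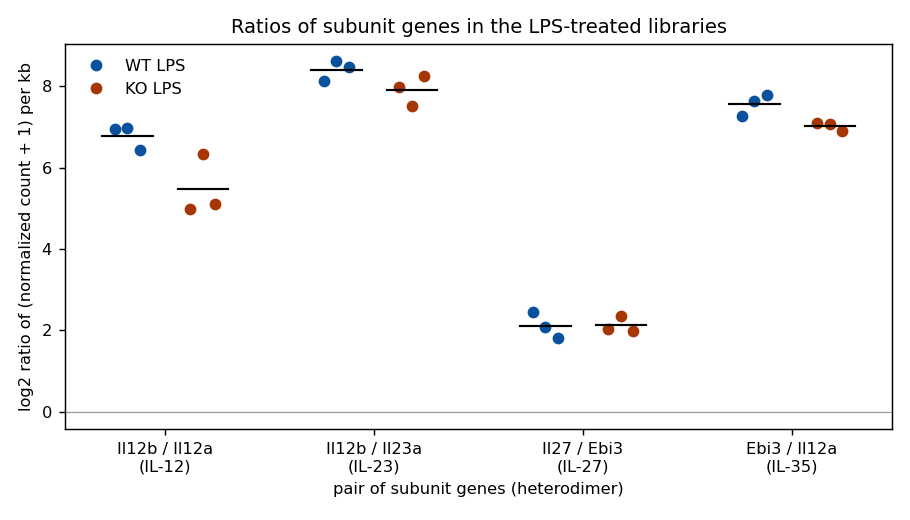
Log2 ratio of the normalized count plus 1 per kb between genes whose products form a heterodimer, in the LPS-treated libraries, with 1 point per library in replicate order and a black line at the mean of 3. The KO libraries lie below the WT libraries for *Il12b* to *Il12a* and for *Ebi3* to *Il12a*, and the genotypes overlap for *Il12b* to *Il23a* and for *Il27* to *Ebi3*.

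The other ligand genes of these families were close to absent. None of 10 such genes (*Il11*, *Cntf*, *Clcf1*, *Ctf1*, *Il31*, *Il20*, *Il22*, *Il24*, *Ifnl2* and *Ifnl3*) passed the filter in any comparison. *Cntf* had the most, with 21 reads over the 12 libraries, and 5 of the 10 had no read in any library. *Il20* and *Il24*, relatives of *Il19* in the IL-10 family, had 1 and 0 reads.

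The receptor genes moved in different directions with LPS. Of the 8 receptor genes of the IL-6 family, 5 were tested in WT macrophages, and 3 fell and none rose, with a median log2 fold change of −1.40. They were *Il6ra*, the specific chain of the IL-6 receptor (−3.46, SE 0.18), *Il6st*, the signaling chain shared by the family (−1.86, SE 0.12), and *Lifr*, a chain of the receptors for LIF and oncostatin M (−1.40, SE 0.28). Of the 3 receptor genes of the IL-12 family, 2 were tested in WT macrophages and *Il12rb1*, which serves both IL-12 and IL-23, rose (4.65, SE 0.41). Of the 7 receptor genes of the IL-10 family, 3 were tested, and *Il10ra*, the specific chain of the IL-10 receptor (2.35, SE 0.09), and *Il20rb* (2.92, SE 0.17), a chain of the IL-19 receptor, rose. *Il20ra*, also of this list, was below the filter, with a mean of 0 in both WT groups, 1.14 in untreated KO and 0 in LPS-treated KO macrophages. The level of *Il10rb* was 2783 ± 28.9 without and 2782 ± 74.5 with LPS (SD, n = 3).

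Of 10 genes of JAK-STAT signaling, 8 rose in WT macrophages and 2 were not called (median 2.51). The 4 largest changes were those of *Socs3* (9.89, SE 0.21) and *Socs1* (7.94, SE 0.14), which encode feedback inhibitors of these receptors, *Jak2* (4.87, SE 0.09) and *Cish* (4.74, SE 0.38). Of 11 genes known to respond to IL-10 and STAT3 in macrophages, 9 rose and 2 fell (median 3.16), among them *Il4ra* at 4.03, *Bcl3* at 3.93 and *Il1rn*, the gene of the IL-1 receptor antagonist, at 3.83. The 2 that fell were *Hmox1* (−1.15), which encodes the heme-degrading enzyme heme oxygenase, and *Ddit4* (−2.35), which encodes an inhibitor of mTOR signaling.

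Of 18 transcription factors known to act on the cytokine genes, 12 rose and 2 fell (median 1.60). *Nfkbiz*, a nuclear NF-kB cofactor needed for *Il6* and *Il12b* induction, had the largest change at 6.07 (SE 0.16), followed by *Batf* at 4.83, *Irf1* at 4.61 and *Cebpd* at 4.50. Of 9 factors known to act on mRNA decay, which either slow it or speed it, 3 rose and 2 fell (median 0.58). *Arid5a*, which stabilizes *Il6* mRNA, had 5.01 (SE 0.12), *Zc3h12a*, whose product degrades it, 3.25 (SE 0.08) and *Zfp36* 3.18 (SE 0.11), while *Zfp36l1* fell by 4.92 (SE 0.28). All medians compare with −0.02 over all genes tested and all counts with the 17.1% called higher and 16.9% called lower, and all calls are from limma with the thresholds given above.

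In KO macrophages the counts were the same for each of these lists, except that *Il23r* was also tested and rose, and no gene of any list was called between the genotypes or in the interaction. *Il23r* had 0 normalized counts in both untreated groups, and 13.4 ± 2.67 in WT and 22.9 ± 9.67 in KO macrophages with LPS (SD, n = 3). In WT macrophages it was below the filter, and the genotypes did not differ by the test with LPS (0.67, limma adjusted p = 0.579). *Cebpb* is named here after its values were seen, as a C/EBP factor that passed the adjusted p alone, as did *Hmox1* (limma adjusted p = 0.0296). With LPS it had 5531 ± 592 normalized counts in KO and 3772 ± 184 in WT macrophages (SD, n = 3), a log2 fold change of 0.55 (SE 0.08, limma adjusted p = 0.0183), and its interaction did not pass the test (0.70, SE 0.16, limma adjusted p = 0.491). *Nfkb1*, *Rel* and the other factors of the list had a limma adjusted p of at least 0.144 in this comparison.

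The genes whose levels followed those of 3 cytokines most closely were found by the root mean square difference of centred log2 profiles over 12 libraries, among 12711 genes. For *Il6* they were *Socs3*, *Ptgs2*, which encodes cyclooxygenase, and *Mir155hg*, the host of a microRNA (0.45 to 0.50 log2 units). For *Il12b* they were *Gbp4*, *Ccl5* and *Tnfsf4* (0.52 to 0.54), and for *Il10* *Tnip3*, *Batf* and *Sdc4* (0.16 to 0.20). The profiles share the split between untreated and LPS-treated libraries, which sets most of their likeness, so this is a description.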

How the data were processed

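RNA of 12 BMDM cultures was sequenced from poly(A) libraries. Trimming used Trimmomatic (0.39), alignment to GRCm38 used STAR (2.7.4a) and gene counting used featureCounts (Subread 2.0.1). The signal values deposited are normalized counts, which the authors made by dividing gene counts by the DESeq2 (1.32.0) size factor of a library. Every value was found to be a whole multiple of its library's smallest value above 0 (100% of values, tolerance 1e-06 reads), which gave back the reads per gene for depth, rare transcripts and count tests. Exon lengths and overlaps come from GENCODE release M21.

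For each comparison, log2 of the normalized count plus 1 was fitted with limma (3.58.1, R 4.3.3), using a variance trend and only the libraries compared. The filter was a mean of 10 or more in those libraries, and p-values were adjusted by Benjamini-Hochberg across all genes that passed. Calls combined an adjusted p under 0.05 with a log2 fold change of 1 or more in size, and the interaction, on all 12 libraries, used the adjusted p only. Ratios of subunit genes, on log2 of the normalized count plus 1 per kb, were compared by exact permutation in scipy (1.17.1). The fits were tested on simulated data. As alternatives, the pseudocount was 0.5 or 5, the filter was dropped or raised to 50, scaling was by upper quartile or quantile, all 12 libraries entered 1 fit, the variance had no trend, edgeR (4.0.16) or DESeq2 (1.42.0) replaced limma, a replicate block was used, the fold threshold was dropped, and each library was left out. The block within each genotype, the term for libraries with *Xist* and subunit ratios without a pseudocount were chosen after seeing the data.

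The 10 genes, the lists and the motifs were chosen with earlier results of these data known. The rule named all 10 genes, up to 4 called genes per list with the largest change with LPS in WT macrophages, any list gene called between the genotypes, *Rasgef1b*, the cell type markers and the 3 genes most like *Il6*, *Il12b* and *Il10*. Replicate numbers in the labels pair untreated and LPS-treated libraries: deviations from the group means of same-numbered libraries had correlations of 0.33, 0.19 and 0.24 for WT and of 0.29, 0.28 and 0.17 for KO over 12711 genes. Libraries of different numbers had −0.24 to 0.01 for WT and −0.24 to −0.04 for KO. The methods describe unpaired samples, so the reported fits have no block. The paper describes the RNA samples of a group as independent, and p-values measure the spread between the libraries of a group. For LPS and the interaction they do not separate the spread between same-numbered pairs from the spread of the response. Groups come from the labels, and no library was left out of the reported fits. 1 gene of the list of other family ligands is not reported here.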

Additional observations from a re-analysis of the deposited data

How the results depend on the processing

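Of 685 log2 fold changes computed under an alternative for the 36 results of single genes, 669 kept their direction and their side of the thresholds, 2 of *Il12b* passed them, 14 changed sign, and no call was lost. The 7 genes called with LPS stayed called in each genotype under every alternative that gave them a value, and without the filter *Lif* and *Il23a* were called as well in WT macrophages (9 in all) and *Il23a* in KO macrophages (8 in all). With a mean of at least 50 the count was 5 in each genotype, since *Il12a* and *Il19* were not tested, and without any 1 of the LPS-treated WT libraries it was 6 in WT, since *Il12a* was not tested. Between the genotypes with LPS, 1 gene, *Il12b*, was counted by the adjusted p alone, and leaving out each library gave 0 to 1 calls. The sign changed in values near 0. *Ebi3* in untreated KO against WT macrophages had 0.0030 with upper quartile scaling, 0.0069 with quantile normalization, 0.0183 with edgeR and 0.0168 with DESeq2, and −0.19 to 0.10 with libraries left out. Leaving out libraries gave −0.1581 to 0.0498 for *Osm* untreated, −0.28 to 0.18 for *Il19* between the genotypes with LPS and −0.33 to 0.17 for its interaction. The interaction of *Il6* was 0.0224 with a pseudocount of 5. The *Il27* to *Ebi3* ratio with LPS gave −0.14 to 0.17 with libraries left out. Without a pseudocount the 5 ratio differences kept their direction (−0.42 for *Il12b* to *Il23a*, exact permutation p = 0.3). The cause of these changes was not tested.

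Upper quartile scaling moved the median of all genes with LPS from −0.02 to 0.16 in WT and from −0.01 to 0.17 in KO macrophages, and quantile normalization to −0.15 and −0.16. Over all genes, the calls between the genotypes with LPS numbered 29, 5 without a variance trend and 44 with DESeq2, and the interaction had 1 call and 23 with DESeq2. With a replicate block, the number of called genes among the 10 was 7, 7, 0, 0 and 0, as without it, for LPS in WT, LPS in KO, the genotypes untreated, the genotypes with LPS and the interaction. In the last 3 of these the block ties WT to KO libraries, which the numbers do not pair, so it is no check there. A block within each genotype gave 6 interaction calls over all genes, and 925 limma p-values under 0.05 against 537 without a block. None of the genes tested for the interaction had an adjusted p under 0.05 under any alternative. Between the genotypes same-numbered libraries correlate with r = −0.03, −0.04 and 0.24 untreated and −0.20, −0.04 and 0.06 with LPS. Libraries of different numbers gave −0.28 to 0.22 untreated and −0.24 to 0.27 with LPS, so that the numbers do not pair WT with KO libraries. The highest of these was WT library 1 with KO library 2 in both conditions, the libraries with *Xist*. *Lif*, *Il23a*, *Il12a* untreated and *Il19* untreated are limited by depth, since 1 read is 0.660 to 1.41 normalized counts.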
